A study of Mus musculus with 4 samples.

Results

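The genes described here are 35 chaperones and stress response genes of the mouse cell, taken as a fixed list of symbols: 23 belong to the endoplasmic reticulum (ER) and 12 to the heat shock system of the cytosol and mitochondria. Each symbol was looked up in the platform annotation of the array, and the brightest feature of each symbol was kept. A named feature was found for 29 of the 35 genes, 21 of the ER and 8 of the heat shock system, among 22206 gene features in all. The other 6 (Pdia4, Manf, Hspa8, Hsp90ab1, Dnaja1 and Hsf1) were not analysed here. Each of the 29 had 1 feature, so no choice between features arose. CD8+ T cells were isolated from C57/BL6 mice (spleens and lymph nodes) and activated for 3 days with beads carrying antibodies to CD3 and CD28, in medium with IL-2. The control cultures were left untreated and the spermidine cultures had 25 µM spermidine, a polyamine, in the medium. RNA of 2 control and 2 spermidine cultures was read on Clariom S Mouse arrays, 1 array per culture, and the values are log2 signals. The labels call the arrays of a group biological replicates and name no animals, so p-values cover only the spread between these samples, which may be technical. The RNA came from whole cultures of isolated cells, in which fewer cells making a transcript and less of it per cell cannot be told apart.

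Proteins that enter the secretory pathway fold in the ER with the help of BiP, GRP94, the lectins calnexin and calreticulin, and enzymes that form disulfide bonds. When unfolded protein accumulates there, the sensors IRE1, ATF6 and PERK start the unfolded protein response, in which ATF6 and the spliced form of XBP1 switch on chaperone genes through a promoter sequence called the ER stress element (ERSE). In the cytosol, heat and other insults release the factor HSF1, which binds heat shock elements (HSE) and induces HSP70 and its partners. Activated T cells enlarge their ER, and the XBP1 arm of the response is known to be engaged in effector CD8+ T cells.

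The promoter sequences come from RefSeq on build GRCm38.p6, in windows from 250 bases before to 50 bases after a gene's start, and are shown because 10 of the 21 measured ER genes hold the letters of an ER stress element there. A window was given for 28 of the 35 genes, 20 of the ER and 8 of the heat shock system. The ERSE was searched on both strands as CCAAT, any 9 bases and CCACG, and was present in 39 of 32851 windows (0.119%), belonging to 37 genes. Of these 37 genes 8 were members: Hspa5, Hsp90b1, Calr, Canx, Pdia6, Dnajc3, Creld2 and Syvn1. A second form, ERSE-II (ATTGG, any 1 base and CCACG, on either strand), was present in 12 windows (0.0365%), among them those of Dnajb11 and Herpud1. The ERSE ends with CCACG, the letters that ATF6 is known to contact, and begins with CCAAT, the box bound by NF-Y. The sites are printed along the motif's own strand, with the match in capitals and 5 bases on each side in lower case.
Hspa5, chr2:34772020-34772048, + strand: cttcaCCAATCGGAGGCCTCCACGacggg
Hsp90b1, chr10:86705528-86705556, + strand: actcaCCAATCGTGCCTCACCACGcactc
Hsp90b1, chr10:86705633-86705661, - strand: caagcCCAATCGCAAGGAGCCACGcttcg
Calr, chr8:84847070-84847098, + strand: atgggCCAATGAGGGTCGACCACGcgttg
Canx, chr11:50325795-50325823, - strand: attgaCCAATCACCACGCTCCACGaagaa
Pdia6, chr12:17266486-17266514, + strand: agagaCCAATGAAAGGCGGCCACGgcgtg
Dnajc3, chr14:118937822-118937850, + strand: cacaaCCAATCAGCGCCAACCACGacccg
Creld2, chr15:88819515-88819543, - strand: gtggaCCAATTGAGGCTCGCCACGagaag
Syvn1, chr19:6046527-6046555, + strand: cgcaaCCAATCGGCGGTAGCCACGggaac
Dnajb11 (ERSE-II), chr16:22857847-22857867, + strand: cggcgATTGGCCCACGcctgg
Herpud1 (ERSE-II), chr8:94386372-94386392, + strand: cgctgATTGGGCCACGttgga

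The Hspa5 window is given whole, since BiP is the standard readout of the unfolded protein response. Its match runs from base -65 to base -47 relative to the start, just ahead of the TATA-like stretch, and is in capitals.
Hspa5, chr2:34771840-34772139, + strand: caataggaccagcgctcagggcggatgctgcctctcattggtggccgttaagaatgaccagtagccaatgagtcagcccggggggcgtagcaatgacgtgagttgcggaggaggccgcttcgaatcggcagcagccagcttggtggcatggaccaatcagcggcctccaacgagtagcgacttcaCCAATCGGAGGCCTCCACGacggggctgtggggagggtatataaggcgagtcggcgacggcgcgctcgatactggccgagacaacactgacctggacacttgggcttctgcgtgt

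For the heat shock genes, an HSE of 3 units, GAA, TTC and GAA with any 2 bases between neighbours, was searched on both strands and present in 198 of the 32851 windows (0.603%), including those of Hsph1, Hspd1 and Hspe1. Hspd1 and Hspe1, which encode the ring and the lid of the mitochondrial chaperonin, lie head to head, and the same stretch of chromosome 1 supplied the match in both. It is in capitals in the Hspe1 window, where the matches of the 2 strands overlap.
Hspe1, chr1:55087898-55088197, + strand: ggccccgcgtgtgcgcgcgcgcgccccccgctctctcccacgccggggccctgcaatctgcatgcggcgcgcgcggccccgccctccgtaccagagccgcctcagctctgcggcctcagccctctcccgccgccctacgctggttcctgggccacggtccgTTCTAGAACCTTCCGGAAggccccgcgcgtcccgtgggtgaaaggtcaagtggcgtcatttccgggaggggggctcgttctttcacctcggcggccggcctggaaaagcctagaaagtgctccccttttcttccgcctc

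The windows of Hspa1a and Hspa1b, the inducible HSP70 genes, are shown because this pair had the largest differences of the 29 genes. They were identical at 296 of 300 bases when laid side by side without gaps. The genes themselves are near-identical copies, so signal of one may reach the feature of the other and the 2 features are not independent readings. The capitals mark the inverted CCAAT box (ATTGG) in each, and no 3-unit HSE in the letters searched was found in either window. The search took exact letters only, so it would miss an element with an imperfect unit and does not show that these windows lack one.
Hspa1a, chr17:34972107-34972406, - strand: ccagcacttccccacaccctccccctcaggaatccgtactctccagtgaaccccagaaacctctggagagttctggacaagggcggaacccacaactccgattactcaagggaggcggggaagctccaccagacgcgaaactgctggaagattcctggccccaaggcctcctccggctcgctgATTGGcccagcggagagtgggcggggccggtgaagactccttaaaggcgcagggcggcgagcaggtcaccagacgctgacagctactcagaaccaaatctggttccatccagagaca
Hspa1b, chr17:34959189-34959488, - strand: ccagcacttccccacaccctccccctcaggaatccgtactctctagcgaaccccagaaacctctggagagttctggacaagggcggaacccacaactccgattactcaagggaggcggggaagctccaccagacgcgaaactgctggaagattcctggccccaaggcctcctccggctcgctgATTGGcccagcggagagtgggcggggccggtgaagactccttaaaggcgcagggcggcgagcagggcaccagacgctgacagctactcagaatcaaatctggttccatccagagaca

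With spermidine, several ER folding genes gave lower signals, the ER stress sensors Atf6 and Ern1 gave higher ones, and the inducible HSP70 genes Hspa1a and Hspa1b gave the largest higher ones. None of these differences was a called change. After Benjamini-Hochberg adjustment over all 22206 features, 0 of the 29 genes had a limma p under 0.05, and the same was true of 0 features of the whole array (0%), so every difference below is a value with its error. At an unadjusted p under 0.05 there were 3 higher genes (Atf6, Hspa1a, Hspa1b) and 1 lower gene (Sec61b) among the 29, where 3.38% of all features were higher and 3.64% lower by the same rule, 7.02% in all. The groups did not overlap in 15 of the 29 genes. The spermidine pair was the higher one in 6 and the lower one in 9, against 18.3% and 18.4% of all features (36.7% in all). Of the 29 genes 28 were among the 9228 features whose mean was above the background level described below with Hspa1b. Among these 28 the pair was higher in 5 and lower in 9, against 19.2% and 22.5% of the 9228 (41.8% in all). In a fit to the 9228 features 10.2% had an unadjusted p under 0.05 (limma). The balance among the 29 rested on the scaling. After median centring of the arrays the spermidine pair was higher in 7 and lower in 5, against 17.2% and 17.9% of all features. ER genes with a lower pair went from 7 to 3. The 21 ER genes had a median log2 difference of -0.21, with 12 lower and 9 higher, and the 8 heat shock genes a median of 0.12, with 3 lower and 5 higher, where 50.9% of all features were lower and 49.1% higher. Over all 19572 features with 1 symbol the median was -0.01.

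**Figure D1:**
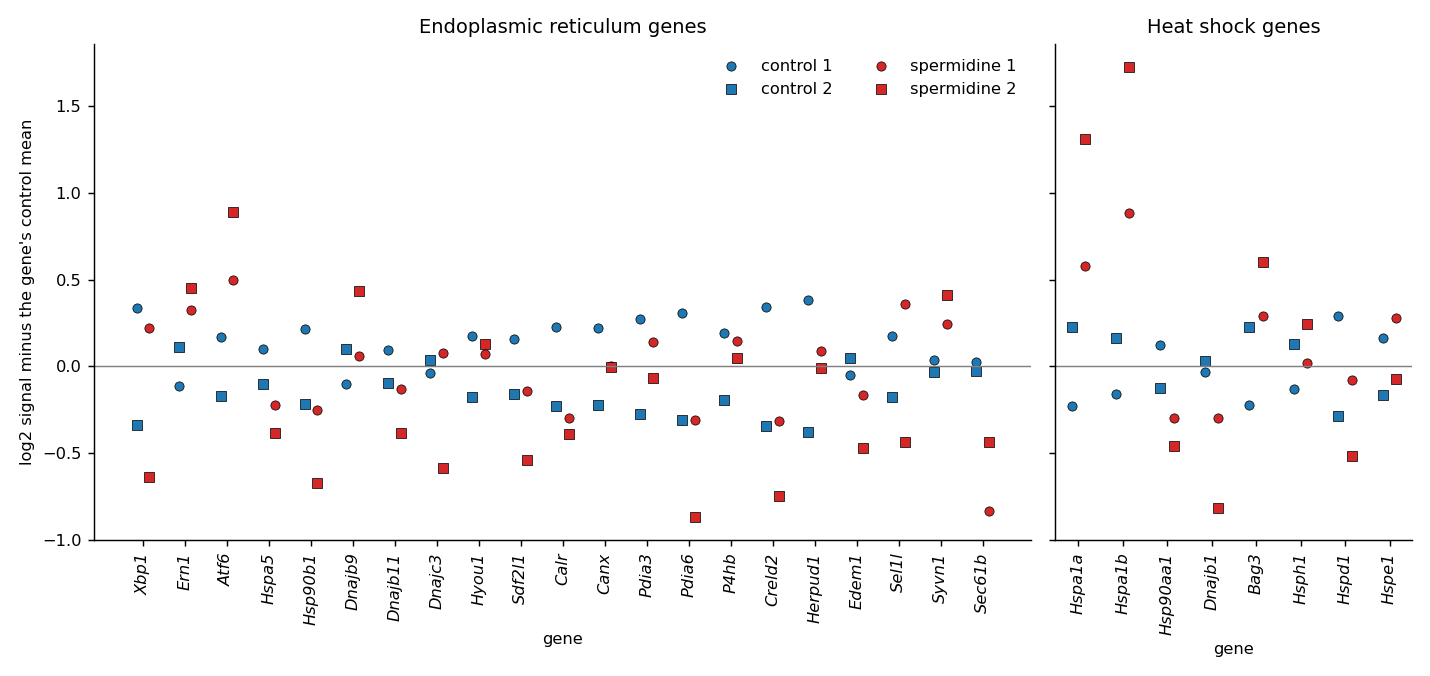
Log2 signal of each measured gene on each array, minus that gene's mean over the 2 control arrays, for the 21 ER genes (left) and the 8 heat shock genes (right). Blue marks are control arrays, red marks are spermidine arrays, circles are replicate 1 and squares replicate 2. Hspa1b reached 1.73 above its control mean in spermidine replicate 2, and for most ER genes the blue circle lies above the blue square.

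The sensors of ER stress stood above control. Atf6, the membrane-bound factor that is cut in the Golgi to release its active part, gave 10.84 and 10.50 without spermidine and 11.17 and 11.56 with it. Its groups did not overlap, and the difference was 0.69 ± 0.25 (log2, SE), a 1.62-fold higher level (adjusted p = 0.666, limma). Ern1, which encodes IRE1, the kinase and endonuclease that splices Xbp1 mRNA, gave 8.97 and 9.19 in control and 9.41 and 9.53 with spermidine. Here too the spermidine arrays lay above both control arrays, with a difference of 0.39 ± 0.23 (SE; adjusted p = 0.774, limma). Eif2ak3, the gene of the third sensor PERK and not on the list of 35, gave 12.50 and 13.59 in control and 13.89 and 14.47 with spermidine, a difference of 1.14 ± 0.38 (SE; adjusted p = 0.637, limma). The spread of its control arrays was 1.09, and the difference was 0.59 without control replicate 1 and 1.68 without control replicate 2. Xbp1, the transcription factor whose mRNA IRE1 splices, gave 14.64 and 13.97 in control and 14.53 and 13.67 with spermidine. Its groups overlapped, the difference (-0.21 ± 0.35, SE) was smaller than the gap within either group, and it turned to 0.13 without control replicate 1 and 0.22 without spermidine replicate 2. A gene-level signal does not separate spliced from unspliced Xbp1 mRNA, so the activity of IRE1 was not measured.

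BiP and its partners were mostly lower. Hspa5, the gene of BiP, the HSP70 of the ER that also holds the sensors inactive, gave 16.23 and 16.02 in control and 15.90 and 15.74 with spermidine. The groups did not overlap, yet the gap between them was narrow and the difference was -0.30 ± 0.23 (SE; adjusted p = 0.830, limma). Hsp90b1, the gene of the ER HSP90 protein GRP94, gave 16.01 and 15.57 against 15.54 and 15.12, a difference of -0.46 ± 0.27 (SE; adjusted p = 0.765, limma). Its lower control array and its higher spermidine array were 0.035 apart, so its groups barely separated. Dnajb11, a co-chaperone that hands clients to BiP, gave 9.88 and 9.68 in control and 9.65 and 9.39 with spermidine, again without overlap (-0.26 ± 0.23, SE). Sdf2l1, which works with Dnajb11, had a difference of -0.34 ± 0.25 (SE) with overlapping groups, and Dnajc3, another BiP co-chaperone, one of -0.26 ± 0.27 (SE). For Dnajc3, spermidine replicate 2 stood alone at 11.63 while the other 3 arrays ran from 12.19 to 12.30, and without it the difference was 0.08. Dnajb9, a co-chaperone that presents IRE1 to BiP, stood at 0.25 ± 0.24 (SE) and Hyou1, the nucleotide exchange factor of BiP, at 0.10 ± 0.24 (SE), both with overlapping groups. In this group of 7 genes 5 were lower and 2 higher, with a median of -0.26.

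Levels above 16 lie toward the top of the array scale, which ended at 19.93 and had 188 features above 16 on every array. Whether differences are compressed there was not tested. The members with a value above 16 are Hspa5, Hsp90b1, Calr and the cytosolic Hsp90aa1.

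The lectin chaperones and the disulfide enzymes divided. Pdia6, a disulfide isomerase that also tempers IRE1 and PERK signals, gave 12.45 and 11.83 in control and 11.83 and 11.27 with spermidine. Control replicate 2 and spermidine replicate 1 were nearly equal, 0.0015 apart, and the difference was -0.59 ± 0.30 (SE; adjusted p = 0.741, limma). Creld2, an ER stress-induced protein with a role in disulfide folding, gave 8.77 and 8.09 against 8.12 and 7.68, a difference of -0.53 ± 0.30 (SE) with groups that overlapped by 0.028. Calr, the gene of the lectin and calcium store protein calreticulin, gave 16.41 and 15.95 in control and 15.89 and 15.79 with spermidine (-0.34 ± 0.25, SE; adjusted p = 0.818, limma). All 3 genes had 1 control array well above the other 3 arrays, replicate 1. Without it the differences were -0.28 for Pdia6, -0.19 for Creld2 and -0.12 for Calr. The other 3 lay near 0: Canx, the membrane lectin calnexin, differed by 0.00 ± 0.24 (SE), its partner oxidoreductase Pdia3 by 0.04 ± 0.26 (SE) and the main disulfide isomerase P4hb by 0.10 ± 0.24 (SE). The spermidine values of these 3 fell between the 2 control values in every case.

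Genes that move proteins into the ER or clear them from it had no common direction. Sec61b, a small subunit of the channel through which proteins enter the ER, gave 7.43 and 7.38 in control and 6.57 and 6.96 with spermidine. Its control arrays were close together, both spermidine arrays lay below them, and the difference was -0.64 ± 0.24 (SE), a 1.56-fold lower level (unadjusted p = 0.0289, adjusted p = 0.677, limma). Its value in spermidine replicate 1 was near the 95th percentile of the background features on that array (6.39), so the fold includes a value near background. Sec61b was the gene of the ER list with the most negative difference and ran from -0.84 to -0.44 when 1 array was left out. Edem1, which picks misfolded glycoproteins for disposal, gave 14.20 and 14.29 against 14.08 and 13.77 (-0.32 ± 0.23, SE), without overlap. Syvn1, the ubiquitin ligase HRD1 of ER-associated degradation, gave 7.10 and 7.03 in control and 7.31 and 7.48 with spermidine (0.33 ± 0.22, SE; adjusted p = 0.807, limma), without overlap and in the other direction. Its adaptor Sel1l stood at -0.04 ± 0.31 (SE) and Herpud1, a scaffold of the same ligase, at 0.04 ± 0.29 (SE). In both, the spread within a group exceeded the difference many times over: the spermidine arrays of Sel1l were 0.80 apart and the control arrays of Herpud1 0.76 apart.

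**Figure D2:**
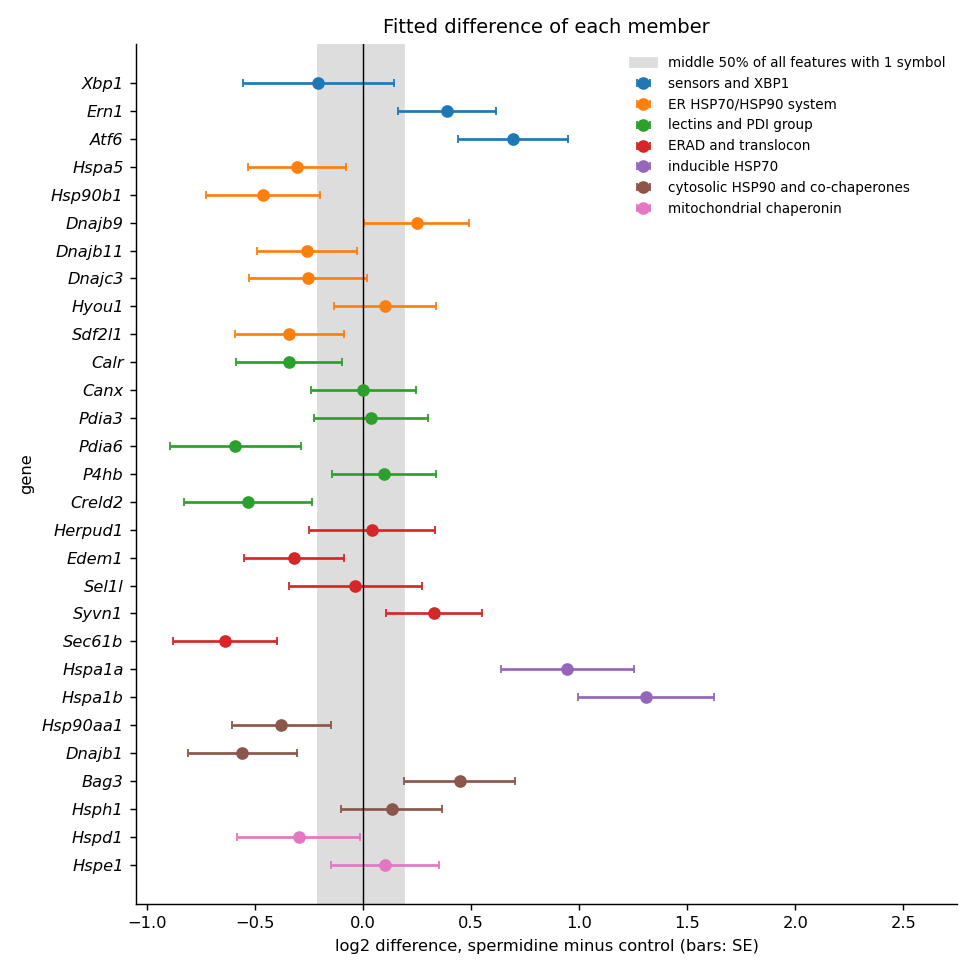
Fitted log2 difference of each of the 29 genes, spermidine minus control, with bars of 1 standard error, coloured by role. The grey band is the middle 50% of all 19572 features with 1 symbol, from -0.21 to 0.19, and Hspa1b, Hspa1a, Atf6, Sec61b and Pdia6 lie farthest outside it.

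The sign of the ER median changed with the arrays kept. Each gene's value was set against its own mean over the 4 arrays, and the medians of these deviations over the 21 genes were 0.23 and -0.08 without spermidine and 0.02 and -0.22 with it. The control arrays were thus farther apart than the control replicate 2 and spermidine replicate 1 arrays were from each other. Control replicate 1 was above control replicate 2 in 17 of the 21 genes and spermidine replicate 1 above spermidine replicate 2 in 15, against 49.1% and 52.5% of all features. Without control replicate 1 the ER median was 0.13 and without spermidine replicate 2 it was 0.06, so the sign turned in both cases. Leaving out 1 array also leaves the replicate numbers unequal between the groups. Between same-numbered arrays, which share only a number in the labels, the spermidine array was lower both times: 0.02 against 0.23 and -0.22 against -0.08. Without control replicate 1 the count of ER genes with a higher spermidine pair went from 3 to 8, and without control replicate 2 the count with a lower pair went from 7 to 15. Groups separate more often with 3 arrays by construction: without control replicate 1 the spermidine pair was higher in 31.1% of all features, and without control replicate 2 it was lower in 34.4%. Leaving out control replicate 2 gave -0.27 and leaving out spermidine replicate 1 gave -0.39. Of the 21 differences 8 were larger than the wider of the 2 gaps within groups: those of Hspa5, Hsp90b1, Dnajb11, Edem1, Sec61b, Ern1, Atf6 and Syvn1. Over all features this held for 24.5%.

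**Figure D3:**
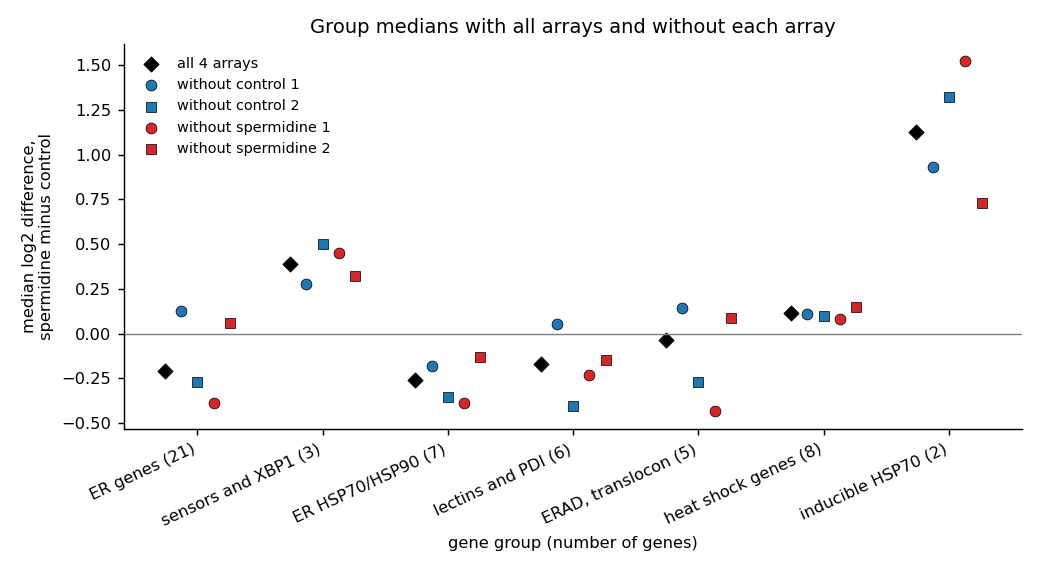
Median log2 difference (spermidine minus control) of gene groups with all 4 arrays (black diamonds) and with 1 array left out (blue for a control array, red for a spermidine array). The ER median crosses 0, from -0.39 to 0.13, the medians of the BiP group stay below 0 and those of the sensors and inducible HSP70 genes stay above it.

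Grouped by promoter element, 10 measured ER genes had an exact match to ERSE or ERSE-II, 9 had no such match and 2 (Hyou1 and Atf6) had no window given. Among the 10, 7 were lower and 3 higher, with a median of -0.28 and a range from -0.59 (Pdia6) to 0.33 (Syvn1). Among the 9 without a match, 5 were lower and 4 higher, with a median of -0.04 and a range from -0.64 (Sec61b) to 0.39 (Ern1). The ranges shared the span from -0.59 to 0.33. When 1 array was left out the median of the 10 ran from -0.39 to -0.18 and that of the 9 from -0.43 to 0.14. A match is a stretch of letters and not a measured binding site, and genes with and without one also differ in role. The search took exact letters within the windows only, so genes without a match may still hold an imperfect or more distant element.

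**Figure D4:**
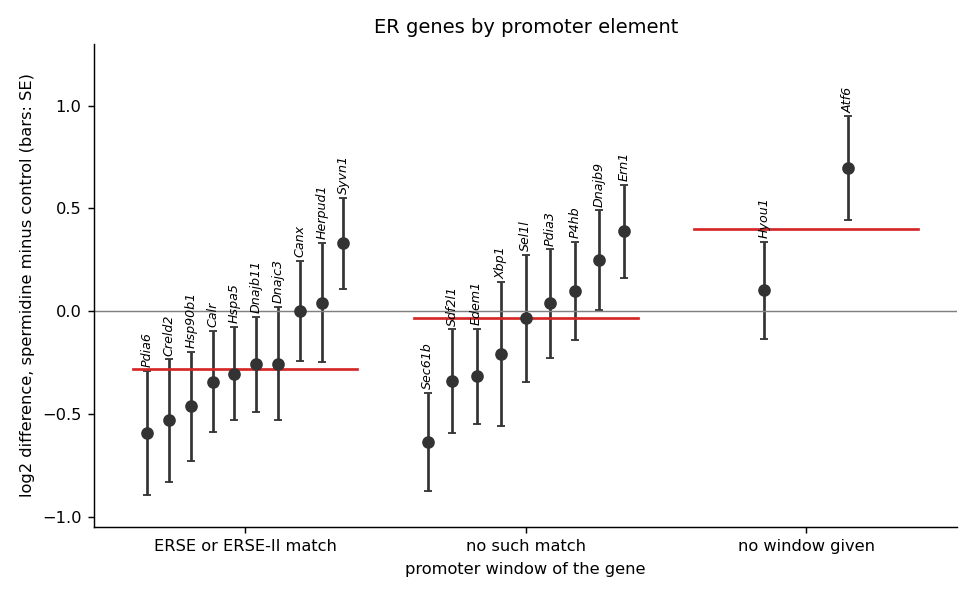
Log2 difference (spermidine minus control, bars of 1 standard error) of the 21 ER genes, split by whether the promoter window holds an ERSE or ERSE-II match. Red lines are group medians (-0.28 with a match, -0.04 without, 0.40 for the 2 genes with no window), and genes lie on both sides of 0 in the first 2 groups.

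In the heat shock system the inducible HSP70 genes were higher. Hspa1b gave 5.75 and 6.07 without spermidine and 6.79 and 7.64 with it. The background level was set from 23 antigenomic features, whose probes match no mouse sequence, as their 95th percentile averaged over arrays (6.35). Both control values of Hspa1b were under it, so the fitted difference of 1.31 ± 0.31 (log2, SE; unadjusted p = 0.00322, adjusted p = 0.637, limma) is no measure of the fold. Against the mean of the background percentiles of the 2 control arrays (6.31) the mean spermidine level (7.22) was 1.87-fold higher, a ratio without an error. Spermidine replicate 1 alone, at 6.79, was nearer to that level, and signal of Hspa1a may reach the feature. The ratio is therefore no firm lower bound. Hspa1a, its neighbour on chromosome 17, gave 6.60 and 7.06 in control and 7.41 and 8.14 with spermidine, all above background. The groups did not overlap and the difference was 0.95 ± 0.31 (SE), a 1.93-fold higher level (adjusted p = 0.637, limma). Control replicate 1 of Hspa1a lay not far above the background percentile of that array (6.29), so this fold includes a value close to background. Spermidine replicate 2 was the highest array for both genes. Without it the differences were 0.58 for Hspa1a and 0.88 for Hspa1b, and without spermidine replicate 1 they were 1.31 and 1.73.

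Of the other 6 measured heat shock genes 3 were lower and 3 higher, and their differences were not tested against those of the inducible HSP70 pair. Dnajb1, the HSP40 protein that delivers clients to HSP70 and is itself a target of HSF1, gave 9.84 and 9.90 in control and 9.57 and 9.05 with spermidine. Both spermidine arrays were below the control arrays, and the difference was -0.56 ± 0.25 (SE; unadjusted p = 0.0595, adjusted p = 0.717, limma). Hsp90aa1, the inducible cytosolic HSP90, gave 16.68 and 16.44 against 16.26 and 16.11, a difference of -0.38 ± 0.23 (SE; adjusted p = 0.788, limma) without overlap. Hsph1, the HSP110 protein that recharges HSP70 with nucleotide, stood at 0.13 ± 0.23 (SE) with overlapping groups. Bag3, another exchange factor of HSP70, ran from 3.36 to 4.18 over the 4 arrays, all under the background level. Its groups did not overlap, with spermidine the higher, but the difference of 0.45 ± 0.26 (SE) is one of signals at background.

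The mitochondrial chaperonin genes, which share a promoter region, did not separate by group. Hspd1, the HSP60 ring protein, gave 14.68 and 14.10 in control and 14.31 and 13.87 with spermidine (-0.30 ± 0.28, SE). Hspe1, its HSP10 lid, gave 11.07 and 10.75 against 11.19 and 10.83 (0.10 ± 0.25, SE). In both genes replicate 1 was above replicate 2 in each group, and the groups overlapped.

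The wider pathways were read from 9 lists of other genes, 196 distinct measured genes in all, of which 0 passed the adjusted threshold and 12 (6.12%) had an unadjusted p under 0.05, against 7.02% of all features. In the PERK and ATF4 arm, 6 of 10 measured genes were higher and 4 lower (median 0.05, from -0.08 without spermidine replicate 1 to 0.14 without spermidine replicate 2). Besides Eif2ak3, the genes with the largest statistics were the stress protein Nupr1 (-1.02 ± 0.33, SE) and the glutathione-degrading enzyme Chac1 (-0.78 ± 0.27, SE), both targets of ATF4 and both without overlap between groups, with 1 array of Chac1 under the background level described above. In that arm the sensor and these 2 targets stood on opposite sides of control, but all were picked for the size of their statistics. Among 12 other sensors and their processing factors 7 were higher, with a median of 0.19 that became 0.0012 over the genes above the background level and -0.0027 without control replicate 1. Creb3l2, an ER membrane factor of the same build as ATF6, stood at 5.85 and 6.19 in control and 7.07 and 7.41 with spermidine, so the control arrays lay under the background level, and Creb3, its relative, differed by 0.45 ± 0.22 (SE). Nfyc, a subunit of NF-Y, the factor that binds the CCAAT part of the ERSE, gave 11.46 and 11.36 against 10.99 and 10.82 (-0.51 ± 0.22, SE).

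Of 33 genes of protein entry into the ER, those of the channel, the signal recognition particle and glycosylation, 25 were lower and 8 higher, where 50.9% of all features were lower. The median was -0.13 and ran from -0.26 to -0.03 when 1 array was left out. The spermidine pair was below the control pair in 8 (24.2%) and above it in 2 (6.06%), against 18.4% and 18.3% of all features. All 33 genes were among the features with a mean above the background level, where the shares were 22.5% lower and 19.2% higher. The share of lower pairs was thus near that of features of like brightness. Srp9 of the signal recognition particle stood at -0.64 ± 0.25 (SE), the signal peptidase subunit Spcs2 at -0.47 ± 0.25 (SE) and the glycosylation enzyme subunit Rpn2 at -0.39 ± 0.22 (SE). Of 40 other ER folding genes 25 were lower (median -0.06, and -0.15 over those above the background level), among them the prolyl isomerase Fkbp2 (-0.73 ± 0.29, SE), while Selenom (-0.59) and the plasma cell protein Mzb1 (0.64) were under the background level on all 4 arrays. Of 24 other degradation genes 14 were lower (median -0.03). Vcp, the ATPase that pulls proteins out of the ER membrane, gave 12.92 and 12.81 in control and 13.24 and 13.40 with spermidine (0.46 ± 0.22, SE), Tor1a differed by -0.54 ± 0.27 (SE), and Sel1l2 (0.98) was at background.

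The 4 cytosolic lists had medians between -0.12 and -0.0005. With 1 array left out the medians ran from -0.22 to -0.03 for other HSP70 and HSP40 genes, from -0.25 to 0.02 for HSP90 co-chaperones, from -0.20 to 0.13 for chaperonin and prefoldin genes and from -0.18 to -0.09 for small heat shock proteins and heat shock factors, so 2 of the 4 turned sign. Of 30 other HSP70, HSP40 and BAG genes 19 were lower. Hspa1l, a further HSP70 gene, had a difference of 0.97 but was under the background level on all 4 arrays. Dnajb4, an HSP40 relative of Dnajb1, stood at 0.52 ± 0.22 (SE), in the opposite direction to Dnajb1, and the histone chaperone Dnajc9 at -0.66 ± 0.26 (SE). Of 18 co-chaperones of HSP90 11 were lower. The largest statistics were those of Rpap3 (0.49 ± 0.22, SE), the myosin chaperone Unc45a (0.41 ± 0.23, SE) and Ahsa1, which speeds the ATPase of HSP90 (-0.41 ± 0.25, SE). In the cytosolic chaperonin and prefoldin list 8 of 15 were lower, with Pfdn5 at 0.47 ± 0.24 (SE), Tcp1 at -0.45 ± 0.25 (SE) and Pfdn4 at -0.50 ± 0.34 (SE). Of 15 small heat shock proteins and heat shock factors 11 were lower, with Hspb6 at -0.49 ± 0.24 (SE) and Hspb11 at -0.47 ± 0.25 (SE), and Cryab (-0.49) at background. In these last 3 lists 0 genes had an unadjusted p under 0.05.

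**Figure D5:**
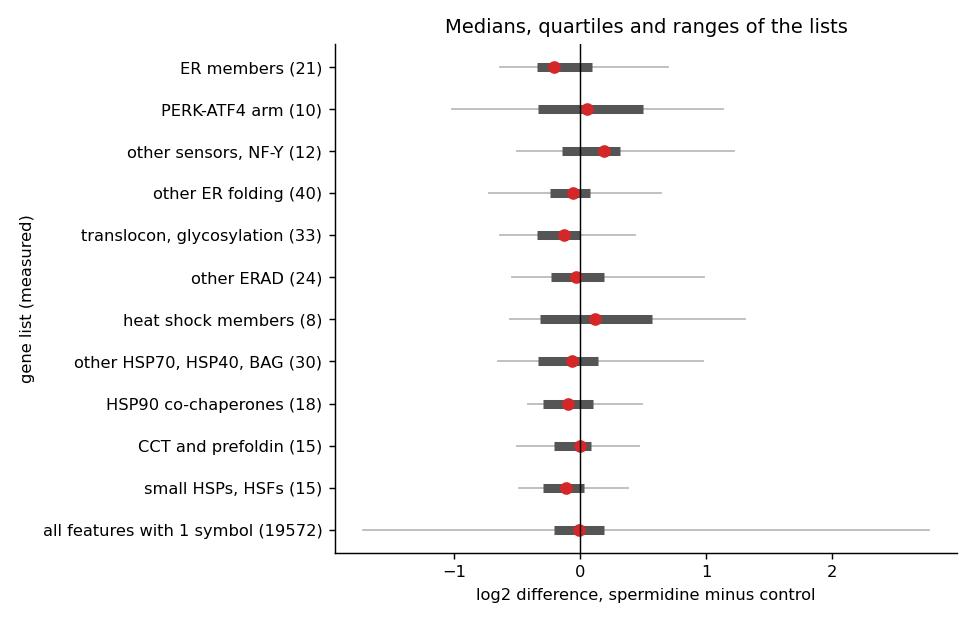
Log2 differences (spermidine minus control) of the ER and heat shock members and of the 9 lists of other pathway genes, with the number of measured genes in brackets. Red points are medians, thick bars the middle 50% and thin lines the full range, and every list's middle 50% overlaps that of all 19572 features with 1 symbol in the last line.

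The arrays carried the markers of the labelled cells: the 9 measured CD8+ T cell markers were above the background level in all 4 arrays, with Cd8a between 16.57 and 16.68. Of these 9 markers 6 were lower and 3 higher with spermidine. The spermidine pair was lower without overlap in 4 and higher in 1, against 18.4% and 18.3% of all features. B cell and plasma cell markers were low but mostly higher with spermidine. Of 9 differences 8 were positive, where 49.1% of all features were higher. In 5 of the 9 the spermidine pair was higher without overlap, against 18.3% of all features. The means of 6 of the 9 were under the background level. Jchain, which encodes the joining chain of secreted antibodies, gave 6.09 and 5.56 in control, under that level, and 7.47 and 8.03 with spermidine (1.92 ± 0.29, SE; unadjusted p = 0.000171, adjusted p = 0.623, limma). Cd79a and Cd79b, the signalling chains of the B cell receptor, were above the background level on all 4 arrays without overlap between groups, with differences of 0.81 ± 0.23 (SE) and 0.35 ± 0.24 (SE). The summed signal of all 9 B cell and plasma cell markers, Jchain included, was 9.08 and 9.02 (log2) in control and 9.78 and 9.71 with spermidine. Of the 9, 6 (Ms4a1, Pax5, Blk, Cd22, Sdc1 and Tnfrsf17) were under the background level on all 4 arrays. The 9 macrophage and 6 dendritic markers were all under it. Of 5 platelet and erythroid markers 4 were higher, 3 without overlap (18.3% of all features). Ppbp (1.78 ± 0.46, SE) was under the background level on all 4 arrays. Of 3 CD4+ T cell markers 1 was higher (Zbtb7b, 0.76 ± 0.26, SE) and 2 lower. Of 4 NK cell markers 2 were higher and 2 lower, with Klre1 (-0.85 ± 0.23, SE) under that level throughout. Itga2b, Cd4, Klrb1c and Eomes were above it on all 4 arrays. The part of all these cell types in the values above was not tested. Array medians ran from 5.13 to 5.25 and correlations between arrays from 0.989 to 0.994, and no detection call was available, so the background level stands in for one. The 8 spike-in controls averaged 7.67 and 7.58 without spermidine and 7.98 and 8.15 with it, and their part was not tested either.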

How the data were processed

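RMA in Affymetrix Expression Console made the deposited log2 values, per the submitters' processing notes, which name no versions. RMA corrects background, equalises arrays by quantiles and summarises probes, which shrinks differences between dim signals. The log2 base was inferred from the values. Of 28846 features 6640 control features were left out, and of the rest 19572 had 1 symbol in the platform annotation and 2634 none. No source used here gives the genome build behind it.

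Spermidine was compared with control in R 4.3.3 with limma 3.58.1 (lmFit, eBayes with a constant prior, two-sided, 5.96 prior and 2 residual degrees of freedom). P-values were Benjamini-Hochberg adjusted over 22206 features, with a threshold of 0.05. The median standard error was 0.246. There is no read depth, and the number of arrays limits the precision. The fit was tested on simulated data. Members, lists, motifs and roles were chosen with earlier results of these data known. All members are named, with up to 3 genes of the largest statistics from each of 9 other lists. Alternatives were other priors, array weights, further normalizations, filters on dim features, the replicate number as a block and each array left out.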

Additional observations from a re-analysis of the deposited data

Results flagged for a closer look

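The 8 spike-in control features, bacterial and phage transcripts added to every sample and outside the gene comparison, were higher in the spermidine arrays by a mean of 0.44 (log2). For 7 of the 8, each spermidine value was above each control value. The groups of 2 arrays are too small for a check of single outlying arrays.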

How the results depend on the processing

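The alternatives followed the 56 members and named pathway genes, and not the cell type markers. None of the 56 passed the adjusted threshold in a setting with all 4 arrays, where their lowest adjusted p was 0.205 (limma). The count of features past that threshold was 0 in the reported fit. It was 1 (none of the 56 genes) with a trend in the prior variance, median centring, cyclic loess, either filter on dim features and the replicate block. The count of members lower at an unadjusted p under 0.05 was 2 with the trend (3.96% of all features), 2 above the background level (5.98%) and 4 with the replicate block (5.6%), against 1 (3.64%) in the reported fit. Same-numbered arrays share only a number in the labels. Their deviations from the group means correlated at 0.21 across all features and 0.60 across the 29 members. The block changed no adjusted call of the members and named pathway genes. Median centring left 3 ER genes with a lower spermidine pair and 4 with a higher one, and turned Canx to -0.014. A further quantile normalization and cyclic loess each left 9 ER genes lower and 3 higher, where 18.7% of all features were lower. Cyclic loess turned Sel1l to 0.0066. The heat shock median was 0.15 after a further quantile normalization and 0.17 after cyclic loess. Causes were not tested.

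With 1 array left out, members past an unadjusted p under 0.05 numbered 1 to 3 higher and 0 to 2 lower. ER genes whose groups did not overlap numbered 4 to 8 higher and 7 to 15 lower. With 3 arrays this held for 65% to 72.1% of all features in either direction. The ER median ran from -0.39 to 0.13 and the heat shock median from 0.084 to 0.15. Signs turned for Canx (-0.22 to 0.22), Pdia3 (-0.24 to 0.31), P4hb (-0.10 to 0.29), Dnajc3 (-0.59 to 0.078), Hyou1 (-0.078 to 0.28), Herpud1 (-0.34 to 0.42), Xbp1 (-0.64 to 0.22), Sel1l (-0.43 to 0.36) and Hspe1 (-0.075 to 0.28).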
